A study of Homo sapiens with 24 samples.

Results

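The TAZ-CAMTA1 fusion was compared with empty vector (EV) in SW872 cells, an established human liposarcoma line. The comparison used the 6 libraries of these groups, 3 per group, out of 24 in the series, and the genes with a mean of 5 or more counts over those 6 libraries, which were 19681 of the 60279 listed. Both groups were stably transduced, selected pools collected 48 h after confluence, so they shared the line, the retroviral backbone and the cell density. EV cells carried that vector without an insert. TAZ-CAMTA1 cells carried the fusion, in which the N-terminal part of TAZ with its TEAD-binding domain is joined to the C-terminal part of CAMTA1. Poly(A) RNA was sequenced, and the values were read counts per gene. Further groups used here were 3 libraries labelled TAZ4SA, a TAZ mutant lacking serines that its inhibitory kinases phosphorylate, 48 h after confluence, and 3 libraries of full-length CAMTA1 with 3 of empty vector (EVsub), both sub-confluent.

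TAZ and its relative YAP are coactivators that do not bind DNA by themselves and reach genes through TEAD transcription factors. In dense cells the Hippo kinases LATS1 and LATS2 phosphorylate them and keep them out of the nucleus. Several target genes of TAZ and YAP encode members of the same pathway. CAMTA1 is a calmodulin-binding transcription factor found mostly in brain, and its fusion with TAZ is the defining lesion of most epithelioid hemangioendotheliomas, a vascular sarcoma. The study asked how far the fusion's transcriptome resembles those of its parent proteins.

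The 6 libraries held 19700277 to 29919655 counts, and mitochondrial genes took 4.30% to 5.65% of them. Levels are given as CPM, counts scaled by the effective library size, and fold changes come from an edgeR quasi-likelihood fit over the 24 libraries. A gene was called at an adjusted p under 0.05. Replicates differed by more than sampling noise, and TAZ-CAMTA1 replicates 1 and 3 were farthest apart. VIM, the intermediate filament of mesenchymal cells, was present at 821, 842 and 734 CPM in EV and at 805, 798 and 629 CPM in TAZ-CAMTA1. The summed level of 6 mesenchymal markers was 4790 to 5680 CPM in EV and 5830 to 7520 CPM in TAZ-CAMTA1. Of 27 adipocyte genes 21 passed the count filter. They summed to 570 to 634 CPM in EV and 575 to 593 CPM in TAZ-CAMTA1. ADIPOQ, FABP4 and LEP, which define fat cells, were among the adipocyte genes that did not reach the filter.

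The gene of each construct part was read first. CAMTA1 (ENSG00000171735, chromosome 1, 6785454 to 7769706, plus strand, GRCh38) stood at 21.3, 23.3 and 19.2 CPM in EV and at 138, 140.2 and 151 CPM in TAZ-CAMTA1. The groups were far apart (a log2 change of 2.75 with SE 0.09, adjusted p = 2.67e-16 by edgeR). WWTR1, the gene of TAZ, stood at 223, 202 and 183 CPM in EV and at 179, 182 and 178 CPM in TAZ-CAMTA1, and this difference did not pass the test (a log2 change of -0.17 with SE 0.08, adjusted p = 0.231 by edgeR). In the libraries labelled TAZ4SA its mean was 135 CPM, lower than in EV, which goes against the label. In the same libraries 22 YAP/TAZ targets had a median log2 fold change of 1.425 against EV, which goes with it. WWTR1 was not raised in the TAZ-CAMTA1 libraries either, although the fusion holds part of TAZ. Of the construct genes only CAMTA1 went with their label, and its gene count does not tell the fusion from full-length CAMTA1. Of the 22 targets 10 were called higher in TAZ-CAMTA1 against EV and none lower. The study reported western blots of the Flag-tagged TAZ4SA and TAZ-CAMTA1 proteins in SW872 cells. Both groups are named by their labels throughout.

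Across all genes 1012 were called, or 5.14% of those tested. Of these 723 were higher in TAZ-CAMTA1 (3.67% of tested genes) and 289 were lower (1.47%). The called changes were mostly modest, with a median log2 fold change of 0.69 among higher genes and -0.54 among lower genes. Groups did not overlap in 1002 of the 1012 called genes, so a lack of overlap adds little to a call. There were 237 genes at least 2-fold higher and 58 at least 2-fold lower. The count depended on single libraries and was 546 without EV replicate 2, 556 without TAZ-CAMTA1 replicate 3 and 670 without TAZ-CAMTA1 replicate 2. Of the 44 gene lists examined, the highest shares of called members were in YAP/TAZ targets (45.5%) and adhesive and matricellular proteins (40% of 25). Next came Hippo pathway genes (34.3%) and proteoglycans (33.3%). The lists held protein-coding genes, of which 6.27% were called in all. Lists could share genes, and CCN2 was in both of the first named.

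**Figure D1:**
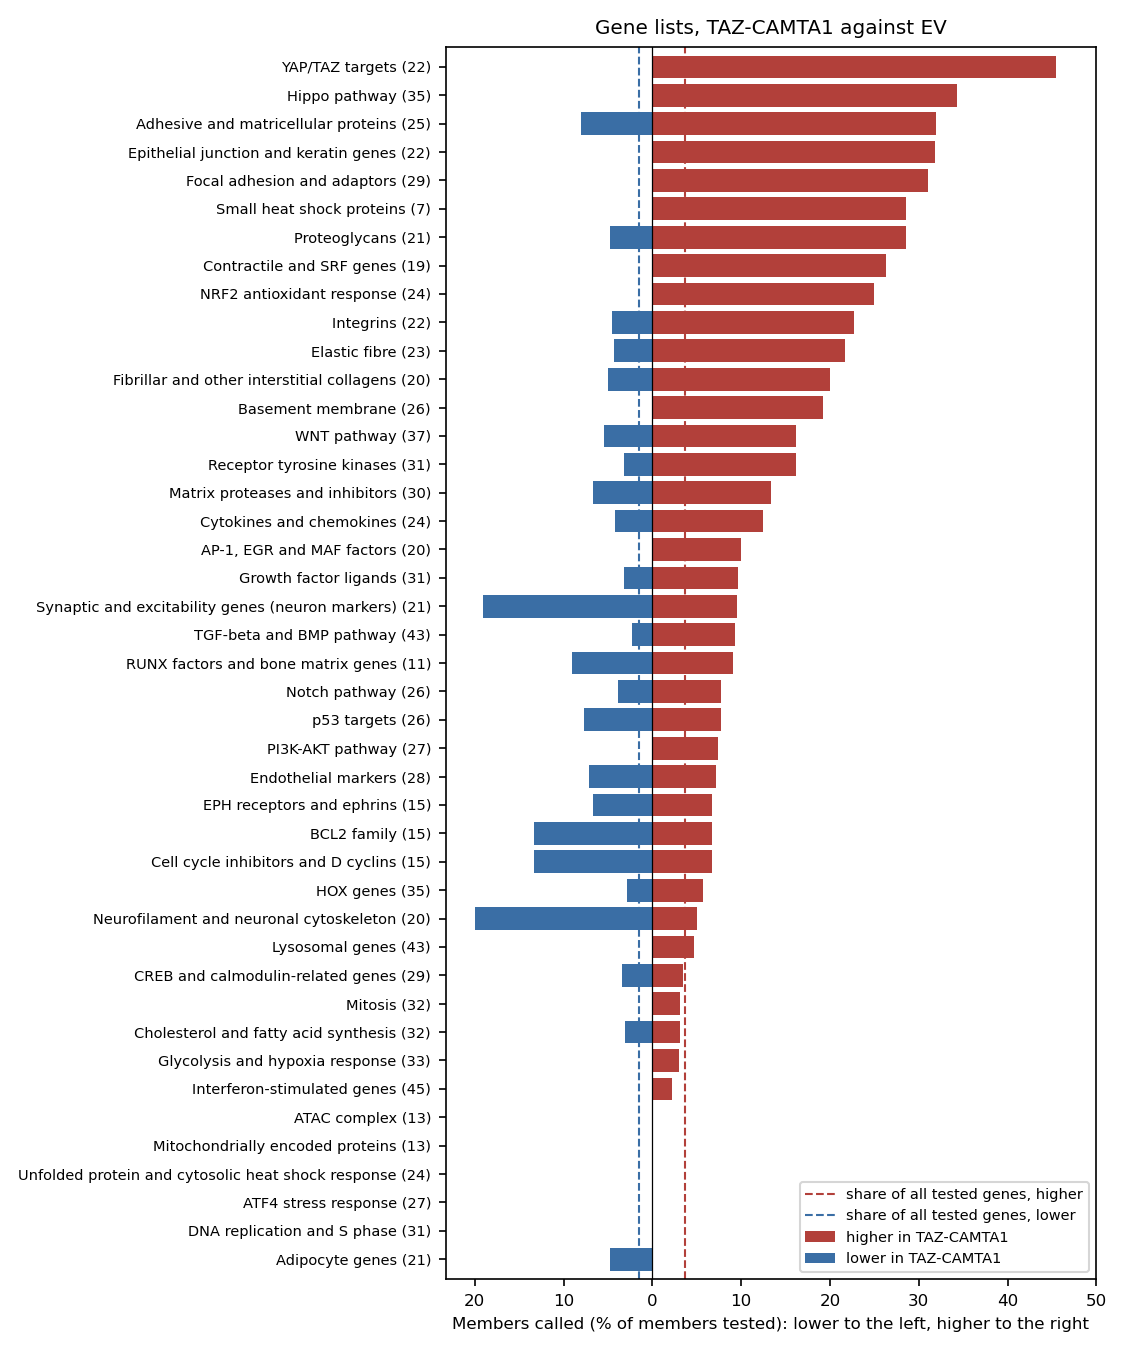
Bars give the percentage of tested members of gene lists that were called higher (right, red) or lower (left, blue) in TAZ-CAMTA1 against EV, with the number tested in parentheses and dashed lines at the shares over all tested genes, 3.67% and 1.47%. YAP/TAZ targets have 10 of 22 members higher and none lower, and the DNA replication list has no called member.

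Several YAP/TAZ target genes and Hippo pathway genes were higher in TAZ-CAMTA1. Of 22 YAP/TAZ targets 10 were higher and none lower, with a median log2 fold change of 0.44, and of 35 Hippo pathway genes 12 were higher and none lower, with a median of 0.19. CCN2 (ENSG00000118523, chromosome 6, 131948176 to 131951372, minus strand), a secreted matricellular protein and a standard TEAD target, stood at 26.5, 20.6 and 16.4 CPM in EV and at 114, 119.8 and 125 CPM in TAZ-CAMTA1 (a log2 change of 2.49 with SE 0.19, adjusted p = 4.31e-09 by edgeR). AMOTL2, a junction protein that tethers YAP and TAZ, stood at 21, 20.3 and 21 CPM in EV and at 90.7, 99.2 and 116 CPM in TAZ-CAMTA1 (a log2 change of 2.3 with SE 0.11, adjusted p = 2.81e-13 by edgeR). In both genes every TAZ-CAMTA1 library was far above every EV library. CCN1, another matricellular target, rose by 1.66 on the log2 scale (SE 0.11, edgeR adjusted p = 2.19e-10). ANKRD1, a nuclear ankyrin-repeat protein and also a standard target, stood at 1.58, 0.833 and 0.819 CPM in EV and at 0.904, 1.53 and 1.04 CPM in TAZ-CAMTA1, and its groups overlapped.

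Regulators and core members of the Hippo pathway were among the called genes of its list. WTIP, an Ajuba-family LIM protein, stood at 5.97, 7.73 and 6.89 CPM in EV and at 37.4, 36.2 and 41.5 CPM in TAZ-CAMTA1 (a log2 change of 2.49 with SE 0.13, adjusted p = 1.83e-12 by edgeR). AJUBA, its relative, which binds LATS kinases, went from 67.2, 65.1 and 82.3 CPM to 204, 224 and 258 CPM (edgeR adjusted p = 6.18e-08). LATS2, one of the kinases, went from 11.2, 10.3 and 10.7 CPM to 28.4, 29.8 and 36.9 CPM (edgeR adjusted p = 2.47e-09), while LATS1 had a log2 fold change of 0.04 and did not pass the test. In WTIP, AJUBA and LATS2 the groups did not overlap. The upstream scaffolds WWC1 and WWC2 rose by 1.88 and 1.18 on the log2 scale (edgeR adjusted p = 6.59e-08 and 1.12e-06). Among the DNA-binding partners TEAD4 rose by 1.05 and TEAD1 by 0.83 (edgeR adjusted p = 3.33e-07 and 0.000213), whereas TEAD2 and TEAD3 did not pass the test (log2 fold changes -0.22 and 0.13). YAP1 had a log2 fold change of 0.4 (SE 0.1, edgeR adjusted p = 0.0176), and its call was lost without TAZ-CAMTA1 replicate 2 or 3 and without EV replicate 2 or 3. The kinase genes STK3 and STK4 and their scaffold SAV1 did not pass the test (log2 fold changes 0.19, -0.02 and -0.01).

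**Figure D2:**
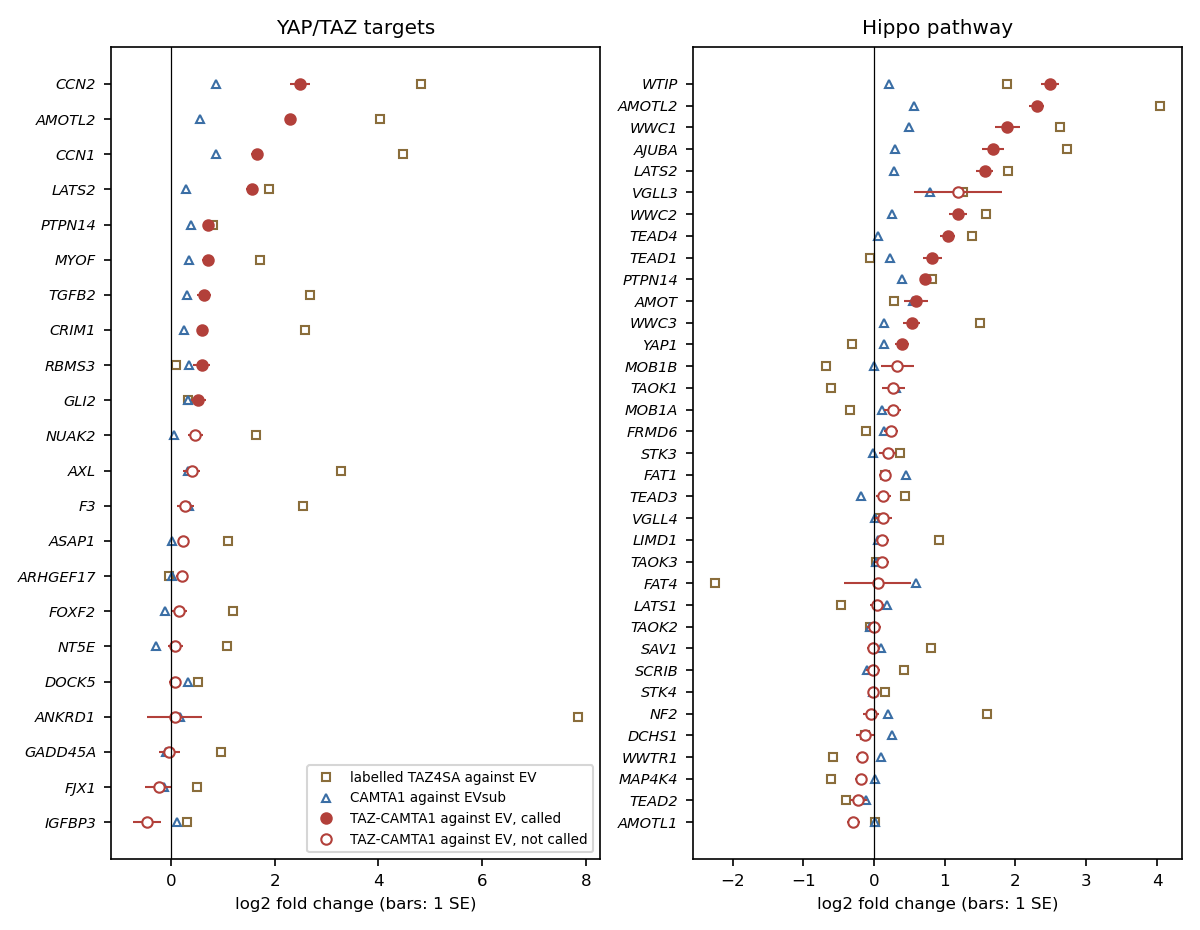
The log2 fold change of each YAP/TAZ target (left) and Hippo pathway gene (right) is plotted for TAZ-CAMTA1 against EV (red circles with 1 SE, filled where called), the libraries labelled TAZ4SA against EV (squares) and CAMTA1 against EVsub (triangles), the first pair sharing the EV libraries. CCN2 lies at 2.49 in TAZ-CAMTA1 and 4.82 in the libraries labelled TAZ4SA, and ANKRD1 at 0.07 and 7.84.

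Promoters were searched for the core of the TEAD site, GGAATG on either strand, in the RefSeq sequences (GRCh38.p14) from 250 bases before to 50 after the first start listed for each gene, which were matched by symbol for 11574 of the 14457 tested protein-coding genes. These letters occurred in 1276 promoters, or 11% of them, and in 102 of the 511 matched promoters of genes called higher. They were found in 24.8% of the 141 promoters of genes at least 2-fold higher, and in 12.6% of the 207 of genes called lower. By list, 7 of 16 YAP/TAZ target promoters held them, 5 of 28 of Hippo pathway genes, 2 of 23 of focal adhesion genes and 1 of 13 of epithelial junction and keratin genes. The AP-1 site TGANTCA occurred in 4.72% of all promoters and 7.44% of those of genes called higher, and the EGR site GCGGGGGCG in 8.04% and in 46 of 511. In genes at least 2-fold higher these shares were 9.22% for AP-1 and 4.26% for EGR. FBLN5, AMOTL2 and AJUBA held no GGAATG in this window, though for AMOTL2 and AJUBA another listed start, not searched here for all genes, had a match. The 250 bases before the first listed start of 3 strongly risen genes are shown because they hold the letters, 5′ to 3′ along each gene, with each match in capitals. They are CCN2 (chr6:131951373-131951622, minus strand), WTIP (chr19:34481508-34481757, plus strand) and COL12A1 (chr6:75206054-75206303, minus strand), and they hold 3, 2 and 1 matches.
CCN2: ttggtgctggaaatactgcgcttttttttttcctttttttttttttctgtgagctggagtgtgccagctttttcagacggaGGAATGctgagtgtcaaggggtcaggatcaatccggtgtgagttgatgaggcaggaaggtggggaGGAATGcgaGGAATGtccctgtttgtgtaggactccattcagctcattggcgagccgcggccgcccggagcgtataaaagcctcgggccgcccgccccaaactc
WTIP: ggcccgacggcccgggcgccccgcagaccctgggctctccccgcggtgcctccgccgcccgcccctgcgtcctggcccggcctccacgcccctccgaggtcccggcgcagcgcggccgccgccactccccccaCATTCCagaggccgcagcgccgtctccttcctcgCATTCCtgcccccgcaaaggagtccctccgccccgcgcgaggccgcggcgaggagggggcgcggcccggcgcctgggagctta
COL12A1: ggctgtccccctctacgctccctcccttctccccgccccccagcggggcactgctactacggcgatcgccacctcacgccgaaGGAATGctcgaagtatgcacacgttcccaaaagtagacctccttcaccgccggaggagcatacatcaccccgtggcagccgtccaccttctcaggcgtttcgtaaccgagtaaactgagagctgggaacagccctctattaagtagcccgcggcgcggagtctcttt

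Focal adhesion genes had 9 of 29 members higher and none lower, with a median log2 fold change of 0.21. LIMS2, an adaptor that links integrin-linked kinase to actin, stood at 1.99, 2.61 and 2.94 CPM in EV and at 20.6, 20.8 and 22.1 CPM in TAZ-CAMTA1 (a log2 change of 3.09 with SE 0.16, adjusted p = 2.1e-12 by edgeR). PARVA, alpha-parvin of the same complex, stood at 221, 227 and 225 CPM in EV and at 380.2, 379 and 377 CPM in TAZ-CAMTA1 (a log2 change of 0.75 with SE 0.06, adjusted p = 1.83e-08 by edgeR). Replicates of both genes were close together and the groups far apart. The caveolin genes CAV1 and CAV2 rose by 0.96 and 0.88 on the log2 scale, and FLNC, an actin-binding filamin, by 0.87. ZNF185, a LIM protein of actin-rich structures in spite of its symbol, stood at 16.4, 17.6 and 18.1 CPM in EV and at 111, 111 and 101 CPM in TAZ-CAMTA1 (a log2 change of 2.63 with SE 0.11, adjusted p = 7.99e-14 by edgeR).

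Integrin and contractile genes were read next. Of 22 integrin genes 5 were higher, and 1 was lower. ITGA3, a laminin-binding chain, rose by 0.76 and ITGA1, a collagen-binding chain, by 0.72 (edgeR adjusted p = 5.58e-05 and 0.000275). The leukocyte chain ITGB2 stood at 0.377, 0.757 and 0.53 CPM in EV and at 1.62, 2.42 and 3.15 CPM in TAZ-CAMTA1 (a log2 change of 2.12 with SE 0.3, adjusted p = 6.02e-05 by edgeR). ITGA10, another collagen-binding chain, fell from 8.26, 10.04 and 9.1 CPM to 4.97, 4.63 and 4.15 CPM (edgeR adjusted p = 0.000275), and its groups did not overlap. Of 19 contractile and SRF-dependent genes 5 were higher, namely CNN2, MYH9, TPM1, CALD1 and LMOD1. That count was 3 with an offset for exon length in the fit, 2 without TAZ-CAMTA1 replicate 1 or 2, and 3 without any one EV library. CALD1, the actin-binding caldesmon, and CNN2, a calponin, kept their calls in all 6 fits without a library, with log2 fold changes of 0.67 and 0.54.

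Matrix genes moved in both directions. FBLN5 (ENSG00000140092, chromosome 14, 91869411 to 91947987, minus strand), a glycoprotein that organises elastic fibres, had the largest log2 fold change among called protein-coding genes with at least 50 mean counts. It stood at 0.72, 0.833 and 1.25 CPM in EV and at 21.3, 20.2 and 23.4 CPM in TAZ-CAMTA1 (a log2 change of 4.56 with SE 0.23, adjusted p = 1.48e-12 by edgeR). Among 23 elastic fibre genes 5 were higher and 1 was lower. The microfibril protein MFAP5 went from 0.171, 0.0757 and 0.0963 CPM to 1.28, 1.87 and 1.71 CPM, and LOX, which crosslinks elastin and collagen, from 7.92, 6.55 and 6.41 CPM to 27.9, 25.6 and 36.1 CPM (log2 fold changes 3.74 and 2.1, edgeR adjusted p = 4.13e-06 and 2.32e-08). Both were higher in every TAZ-CAMTA1 library, but MFAP5 passed the count filter only through that group. FBLN1, a fibulin like FBLN5, went from 169, 184 and 171 CPM to 121, 116 and 96.6 CPM (a log2 change of -0.65 with SE 0.15, adjusted p = 0.00806 by edgeR), a call lost without TAZ-CAMTA1 replicate 3. ELN, elastin itself, did not pass the test (log2 fold change -0.58, edgeR adjusted p = 0.489).

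Of 25 adhesive and matricellular genes 8 were higher and 2 lower. VTN, the plasma adhesion protein vitronectin, and MATN3, a cartilage matrilin, rose by 1.92 and 1.75 on the log2 scale, and POSTN and SPP1, matricellular ligands of integrins, by 1.48 and 1.27 (edgeR adjusted p = 7.26e-06, 1.72e-08, 0.000444 and 0.00034). The related thrombospondin genes went opposite ways. THBS1 stood at 37.1, 30.8 and 30.01 CPM in EV and at 50.6, 57.5 and 53.2 CPM in TAZ-CAMTA1, and THBS2 at 108, 117 and 87.8 CPM in EV and at 51.7, 62 and 47.8 CPM in TAZ-CAMTA1 (log2 fold changes 0.72 and -0.96, edgeR adjusted p = 0.00189 and 0.00135). FN1, fibronectin, did not pass the test (log2 fold change 0.33, SE 0.23, edgeR adjusted p = 0.477).

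Among 20 interstitial collagen genes 4 were higher and 1 was lower, and with the 6 libraries alone 8 were higher and 1 was lower. COL12A1, a collagen that decorates fibrils, stood at 40.4, 47.8 and 46.8 CPM in EV and at 209, 215 and 235 CPM in TAZ-CAMTA1 (a log2 change of 2.29 with SE 0.12, adjusted p = 3.95e-12 by edgeR). COL3A1, the fibrillar collagen III, rose by 0.82 and COL8A1 fell by 0.76 on the log2 scale (edgeR adjusted p = 0.00296 and 0.00877), the latter call being lost without TAZ-CAMTA1 replicate 3. Of 21 proteoglycan genes 6 were higher and 1 was lower, and with the 6 libraries alone 9 were higher and 3 lower. The number called fell from 7 to 3 without TAZ-CAMTA1 replicate 3 or EV replicate 3, and to 4 without TAZ-CAMTA1 replicate 2, EV replicate 1 or EV replicate 2. Their leading members were GPC4, a cell-surface glypican (log2 fold change 2.07, SE 0.17), and FMOD, the collagen-binding fibromodulin (log2 fold change 1.34, SE 0.2), with edgeR adjusted p = 1.42e-08 and 0.000124. Of 26 basement membrane genes 5 were higher and none lower, among them LAMA1, the laminin alpha-1 chain, and HSPG2, perlecan (log2 fold changes 1.12 and 0.76). The collagenase MMP1 went from 0.995, 1.67 and 1.69 CPM to 0.151, 0.613 and 0.214 CPM, and the gelatinase MMP9 from 5.25, 7.95 and 4.05 CPM to 2.56, 2.42 and 1.37 CPM (log2 fold changes -2.12 and -1.46, edgeR adjusted p = 0.00285 and 0.006). The MMP9 call was lost without TAZ-CAMTA1 replicate 3 or EV replicate 2. Among 30 genes of matrix proteases and their inhibitors 4 were higher and 2 lower.

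**Figure D3:**
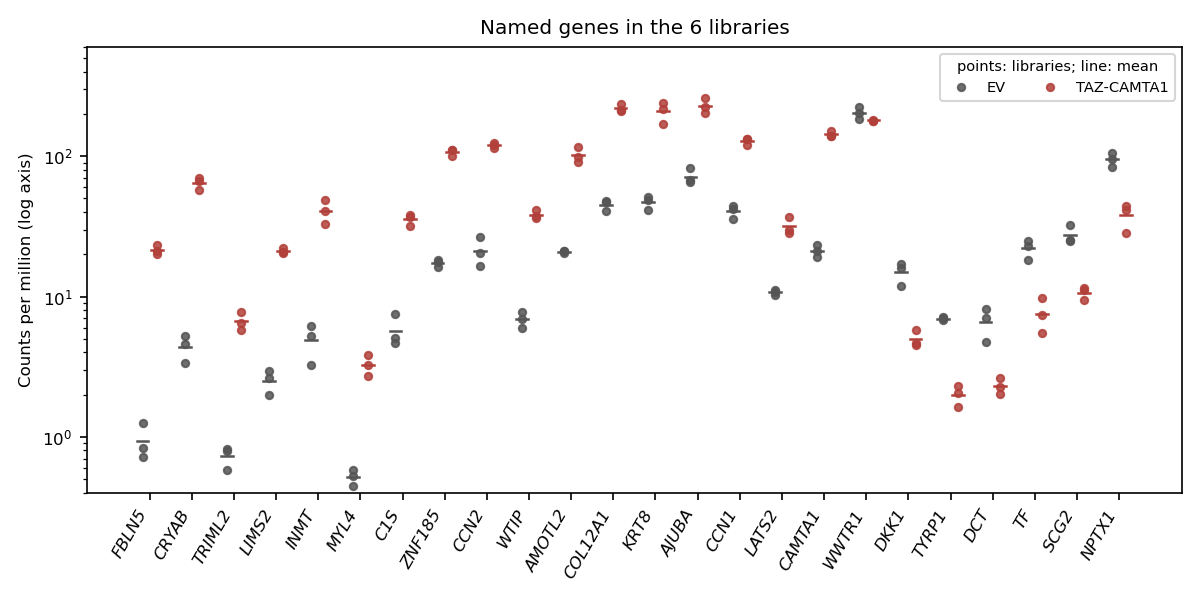
Each point is the level of a gene in 1 library in CPM on a log axis, grey for EV and red for TAZ-CAMTA1, and short lines are means of 3. FBLN5 stands at 0.72, 0.833 and 1.25 CPM in EV and at 21.3, 20.2 and 23.4 CPM in TAZ-CAMTA1, and in WWTR1, which did not pass the test, both groups lie close together.

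Epithelial junction and keratin genes, which are not typical of a mesenchymal line, had 7 of 22 members higher and none lower, with a median log2 fold change of 0.26. KRT8 stood at 51, 48.4 and 41.4 CPM in EV and at 217, 238 and 169.8 CPM in TAZ-CAMTA1 (a log2 change of 2.15 with SE 0.18, adjusted p = 1.34e-08 by edgeR). Its filament partner KRT18 stood at 160.2, 157 and 154 CPM in EV and at 257, 267 and 228 CPM in TAZ-CAMTA1 (a log2 change of 0.67 with SE 0.14, adjusted p = 0.00529 by edgeR). Both keratins of simple epithelia were higher in every TAZ-CAMTA1 library. OCLN, a tight junction protein, rose by 1.5 on the log2 scale. CDH1, E-cadherin, had 1, 1 and 0 counts in EV and 7, 8 and 16 in TAZ-CAMTA1. The ratio was 13.3 with a 95% interval for counting error of 3.39 to 115. CDH1 passed the count filter only through its TAZ-CAMTA1 counts, so this ratio is not independent of the filter. The CDH1 call was lost without TAZ-CAMTA1 replicate 3 or any one EV library. EPCAM and CLDN4, defining epithelial markers, did not pass the test (log2 fold changes -0.41 and -0.14). The list summed to 578 to 653 CPM in EV and 880 to 951 CPM in TAZ-CAMTA1, with KRT7, KRT14, KRT19, GRHL2 and OVOL1 below the count filter, and the part of a change in cell type was not tested.

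Among genes of cell protection, 2 of 7 small heat shock protein genes were higher, and 1 was called with a filter at a mean of 20 counts. CRYAB (ENSG00000109846, chromosome 11, 111908564 to 111923722, minus strand), a chaperone of muscle and lens, stood at 4.56, 5.26 and 3.37 CPM in EV and at 70.5, 66.9 and 57.2 CPM in TAZ-CAMTA1 (a log2 change of 3.87 with SE 0.24, adjusted p = 7.89e-11 by edgeR). HSPB3, a muscle member of the family, stood at 0.206, 0.151 and 0.0482 CPM in EV and at 0.941, 0.715 and 0.978 CPM in TAZ-CAMTA1 (a log2 change of 2.58 with SE 0.53, adjusted p = 0.00353 by edgeR), whereas HSPB1 did not pass the test (log2 fold change 0.02). In CRYAB and HSPB3 the groups did not overlap, but HSPB3 passed the count filter only through its TAZ-CAMTA1 libraries. Of 24 NRF2 antioxidant genes 6 were higher, with a median log2 fold change of 0.32, but 3 were called without TAZ-CAMTA1 replicate 3, EV replicate 1 or EV replicate 2. AKR1B10, an aldo-keto reductase, stood at 0.96, 1.44 and 1.3 CPM in EV and at 9.3, 5.45 and 4.4 CPM in TAZ-CAMTA1 (a log2 change of 2.37 with SE 0.46, adjusted p = 0.00187 by edgeR). FTH1, the ferritin heavy chain, stood at 59.2, 44.1 and 51.9 CPM in EV and at 68, 59.2 and 467 CPM in TAZ-CAMTA1 (edgeR adjusted p = 0.014), and its call was lost without TAZ-CAMTA1 replicate 3, EV replicate 2 or EV replicate 3. SRXN1, sulfiredoxin, was likewise at 2.54 CPM in TAZ-CAMTA1 replicate 3 and at 0 in the other replicates of the group, and was not called.

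Genes of varied function outside the matrix also ranked high. INMT, an amine methyltransferase, stood at 5.25, 6.13 and 3.23 CPM in EV and at 49, 40.9 and 32.7 CPM in TAZ-CAMTA1 (a log2 change of 3.05 with SE 0.26, adjusted p = 2e-08 by edgeR). C1S, a protease of the classical complement pathway, stood at 4.63, 5.07 and 7.47 CPM in EV and at 36.9, 31.8 and 37.9 CPM in TAZ-CAMTA1 (a log2 change of 2.65 with SE 0.25, adjusted p = 9.76e-08 by edgeR). MYL4, an embryonic and atrial myosin light chain, stood at 0.446, 0.53 and 0.578 CPM in EV and at 3.8, 3.23 and 2.72 CPM in TAZ-CAMTA1 (a log2 change of 2.65 with SE 0.28, adjusted p = 6.05e-07 by edgeR). In each of these the groups did not overlap, which the rule that named them required. CSF2RA, a cytokine receptor chain, rose by 2.67, TRIML2, a TRIM-like protein, by 3.2 and STXBP6, a binder of SNARE proteins, by 2.38 on the log2 scale (edgeR adjusted p = 3.23e-10, 1.35e-11 and 4.14e-08). These 6 genes kept their calls in all 6 fits without a library.

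The genes that fell were fewer. DKK1 (ENSG00000107984, chromosome 10, 52314281 to 52318042, plus strand), a secreted WNT inhibitor, stood at 17.1, 16 and 11.9 CPM in EV and at 4.52, 5.75 and 4.67 CPM in TAZ-CAMTA1 (a log2 change of -1.59 with SE 0.17, adjusted p = 6.46e-07 by edgeR). In the WNT list 6 of 37 members were higher, the ligands WNT5A and WNT5B, the receptors FZD5, FZD6 and FZD7 and the coreceptor LRP6, and 2 were lower, DKK1 and the inhibitor NKD1. The list had 4 called members without TAZ-CAMTA1 replicate 3 and 5 without TAZ-CAMTA1 replicate 2 or EV replicate 2. Its split also moved, to 4 higher and 4 lower without EV replicate 3. With DESeq2, and with the 6 libraries alone, 7 were higher and 5 lower. AXIN2 and LEF1, targets of canonical WNT signalling, did not pass the test (log2 fold changes -0.14 and -0.74).

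TYRP1, an enzyme of melanin synthesis, fell from 7.1, 6.78 and 6.99 CPM to 1.62, 2.04 and 2.29 CPM (edgeR adjusted p = 2.24e-10). DCT, of the same pathway, fell from 8.13, 7.01 and 4.77 CPM to 2.64, 2.28 and 2.02 CPM (edgeR adjusted p = 0.000202). GPNMB and SLC45A2, other genes of pigment cells, went the other way and rose by 1.13 and 1.28 on the log2 scale (edgeR adjusted p = 8.6e-05 and 0.00498). TF, the iron carrier transferrin, and CYP24A1, which degrades active vitamin D, fell by 1.56 and 1.92 on the log2 scale (edgeR adjusted p = 6.59e-05 and 2.02e-05). DHRS2, a short-chain dehydrogenase, fell by 1.53 and F13A1, a transglutaminase subunit, by 1.38 (edgeR adjusted p = 0.00108 and 0.00102). The receptor tyrosine kinase EPHB1 went from 0.995, 1.02 and 1.88 CPM to 0.226, 0.102 and 0.183 CPM (a log2 change of -2.87 with SE 0.42, adjusted p = 7.97e-05 by edgeR).

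Neuronal genes had more members lower than higher. Of 21 synaptic and excitability genes 4 were lower and 2 higher, with a median log2 fold change of -0.29, and of 20 neuronal cytoskeleton genes 4 were lower and 1 higher, with a median of -0.16. The latter list had 1 called member without TAZ-CAMTA1 replicate 3, 2 without EV replicate 2 and 3 without TAZ-CAMTA1 replicate 2, EV replicate 1 or EV replicate 3. Log2 fold changes ran from -1.57 to 1.54 in the synaptic list and from -0.66 to 0.89 in the cytoskeleton list. Only lower genes are named here. SCG2, a secretory granule protein, stood at 32.6, 24.8 and 25.2 CPM in EV and at 11.1, 11.4 and 9.38 CPM in TAZ-CAMTA1 (a log2 change of -1.38 with SE 0.25, adjusted p = 0.00112 by edgeR). SYP, the synaptic vesicle protein synaptophysin, and STMN3, a microtubule regulator, fell by 0.92 and 0.55 on the log2 scale (edgeR adjusted p = 0.00296 and 0.00196). NPTX1, a synaptic pentraxin outside the lists, stood at 96.2, 105 and 83.8 CPM in EV and at 44.1, 41.1 and 28.4 CPM in TAZ-CAMTA1 (a log2 change of -1.33 with SE 0.22, adjusted p = 0.000447 by edgeR). The synaptic list summed to 208 to 213 CPM in EV and 163 to 187 CPM in TAZ-CAMTA1, and 7 of its tested genes were below 1 CPM in all 6 libraries.

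Endothelial markers moved without a common direction, with 2 of 28 higher and 2 lower. The count of 4 was 2 without EV replicate 1 or 2, since the calls of PDPN and ANGPT2 were lost. The angiopoietin receptor TEK went from 24.9, 28.7 and 28.7 CPM to 59.6, 56.6 and 57.9 CPM, and the related receptor TIE1 from 87, 99.9 and 92.4 CPM to 55.4, 54.8 and 49.6 CPM (log2 fold changes 1.08 and -0.81, edgeR adjusted p = 0.00119 and 0.000202). PECAM1 and CDH5, defining endothelial genes, did not pass the test (log2 fold changes 0.2 and 0.32). The summed level of the list was 1070 to 1200 CPM in EV and 1130 to 1200 CPM in TAZ-CAMTA1.

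Several gene lists had no call by edgeR. As 5.14% of all tested genes were called, few or no calls are expected in lists of these sizes. Over all 19681 genes 3572 had an unadjusted p under 0.05 by edgeR, and DESeq2 called 1247. None of 31 DNA replication genes was called, none had an unadjusted p under 0.05 and DESeq2 called none. None of 27 ATF4 stress response genes was called, 3 had an unadjusted p under 0.05 and DESeq2 called none. None of 24 genes of the unfolded protein and cytosolic heat shock response was called, 4 had an unadjusted p under 0.05 and DESeq2 called 1. The ATAC histone acetyltransferase complex had no call among 13 subunits, with 6 at an unadjusted p under 0.05 and 2 called by DESeq2. Of 13 mitochondrially encoded proteins none was called, none had an unadjusted p under 0.05 and DESeq2 called none. Single members were called in 3 further lists, KIF23 among 32 mitotic genes, USP18 among 45 interferon-stimulated genes and P4HA1 among 33 glycolysis and hypoxia genes, and each call was lost without some library, for KIF23 TAZ-CAMTA1 replicate 2 or 3 or EV replicate 3, for USP18 TAZ-CAMTA1 replicate 1 or EV replicate 1 or 2, and for P4HA1 TAZ-CAMTA1 replicate 1 or 2 or EV replicate 2 or 3. With the 6 libraries alone 3 interferon-stimulated genes and 2 glycolysis and hypoxia genes were called.

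Some cytosolic ribosomal protein genes were lower. Of 79 none was higher by the test, 20 were lower, and 3 had a log2 fold change above 0, with a median of -0.3. Their summed level was 6.15%, 6.77% and 6.28% of the scaled library size in EV and 5.79%, 5.13% and 4.4% in TAZ-CAMTA1, so the groups did not overlap. The number called was 41 without TAZ-CAMTA1 replicate 1, 12 without EV replicate 3, 9 without EV replicate 1, 3 without TAZ-CAMTA1 replicate 2, 1 without EV replicate 2 and 0 without TAZ-CAMTA1 replicate 3. Fold changes also rose with exon length. Among genes with at least 100 mean counts, ordered into 5 bins by exon length, the median log2 fold change was -0.08 in the bin of shortest genes and 0.08 in that of the longest, and 2.42% against 6.95% of the genes were called higher. The median exon length was 2941 bases for ribosomal protein genes and 4340 over all tested genes. Total-count scaling called 31 of the 79, all lower. With an offset for exon length 14 of the 79 were called, and the part of length beyond that fit was not tested.

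**Figure D4:**
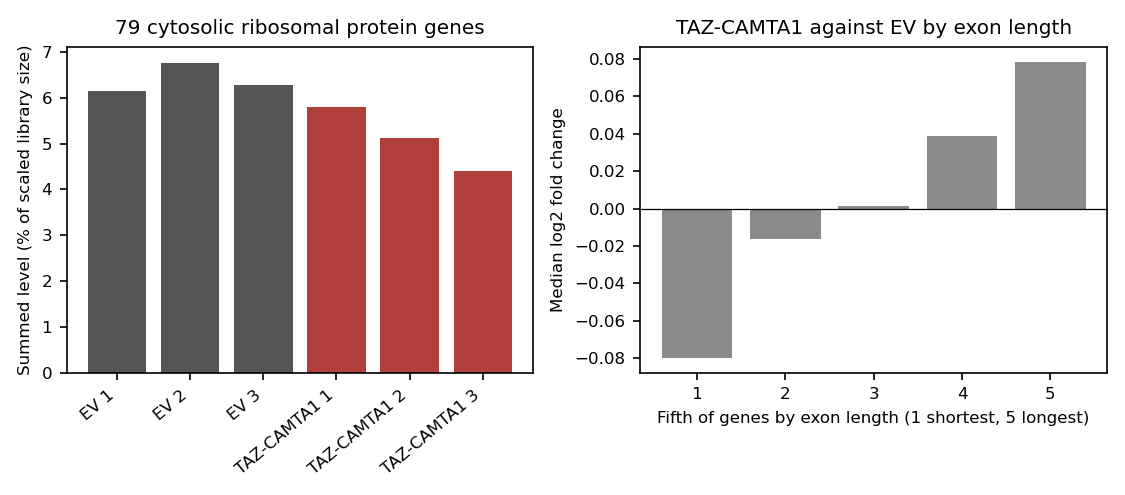
Left, the summed level of 79 cytosolic ribosomal protein genes in each library, in percent of the scaled library size. Right, the median log2 fold change of TAZ-CAMTA1 against EV in 5 bins of genes ordered by annotated exon length. The median rises from -0.08 to 0.08.

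Noncoding genes were called less often, with 45 of 3125 lncRNA genes higher and 19 lower, 2.05% in all, beside 6.27% of 14457 protein-coding genes. That difference was not tested. IGFL2-AS1 stood at 0.857, 1.33 and 1.11 CPM in EV and at 4.86, 3.88 and 3.76 CPM in TAZ-CAMTA1 (a log2 change of 1.92 with SE 0.25, adjusted p = 1.21e-05 by edgeR), and LINC02582 rose by 1.63 on the log2 scale. MIR4527HG, the host transcript of a microRNA, fell by 0.95 (edgeR adjusted p = 0.000945). Whether the counting used strand is not given in the sources used here, so reads of an antisense gene and its partner may be mixed.

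The fusion was next tested directly against the libraries labelled TAZ4SA, which had the same confluence. Here 10479 genes differed, 53.2% of those tested, 5277 of them higher in TAZ-CAMTA1. That split depended on scaling, since total-count scaling gave 10974 genes, 7586 of them higher, and moved the median log2 difference of all genes from 0.04 to 0.25. Of the 22 YAP/TAZ targets 2 were higher in TAZ-CAMTA1 and 18 lower, and 3 and 14 under total-count scaling. CCN2 was lower than in the libraries labelled TAZ4SA by a log2 difference of -2.33 (SE 0.19) and CCN1 by -2.81 (SE 0.11), with edgeR adjusted p = 3.61e-10 and 4.27e-15. ANKRD1 had a mean of 255 CPM in those libraries and a log2 difference of -7.77 (SE 0.39, edgeR adjusted p = 1.47e-13). Of 27 ATF4 response genes 26 were lower in TAZ-CAMTA1 and none higher, and 23 were lower under total-count scaling. Hippo pathway genes were divided, with 11 higher and 14 lower, and total-count scaling turned this to 16 higher and 7 lower.

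Other genes were higher in the fusion than in the libraries labelled TAZ4SA. FBLN5 differed by 3.18 on the log2 scale (SE 0.2), CRYAB by 3.01 (SE 0.23), INMT by 3.12 (SE 0.26) and C1S by 2.73 (SE 0.25), with edgeR adjusted p = 6.48e-12, 1.36e-10, 8.46e-10 and 3.87e-09. POSTN had a mean of 0.397 CPM there and differed by 7.07 (SE 0.39, edgeR adjusted p = 6.39e-13), the largest positive difference among genes called against EV. At the other end stood TNFSF18, a TNF-family ligand at -7.12, HSD17B2, a steroid dehydrogenase at -6.95, and the keratin KRT80 at -6.09, with edgeR adjusted p = 6.61e-12, 1.27e-12 and 1.36e-14. Their mean counts over the 6 libraries of the main comparison were low, at 25, 10.7 and 43. ZNF185 and PARVA did not pass the test against the libraries labelled TAZ4SA in the main fit (log2 differences 0.05, SE 0.1, and -0.03, SE 0.06). Total-count scaling moved the median log2 difference of all genes from 0.04 to 0.25, so differences this small depend on the scaling.

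The change under the fusion was also set against the change under full-length CAMTA1, as TAZ-CAMTA1 minus EV less CAMTA1 minus EVsub. The CAMTA1 libraries and their control were sub-confluent, so construct and cell density cannot be told apart in this contrast. Here 496 genes were called, 2.52% of those tested. CAMTA1 itself did not pass the test (log2 difference 0.32, SE 0.12, edgeR adjusted p = 0.213). Among called protein-coding genes with at least 50 mean counts the difference was largest for CRYAB at 4.31 (SE 0.35), FBLN5 at 3.91 (SE 0.39) and MYL4 at 3.51 (SE 0.42), with edgeR adjusted p = 1.27e-08, 5.96e-07 and 1.01e-05. Their log2 fold changes under CAMTA1 against EVsub were -0.44, 0.65 and -0.86. Rarer genes reached larger values. The epithelial adaptor gene AP1M2 stood at 4.37 and the glucose transporter gene SLC5A1 at 5.47, on mean counts of 17 and 14.5. The count filter used the TAZ-CAMTA1 and EV libraries only, so for such rare genes the difference is not independent of the filter. At the other end VGF, a neuronal secreted protein, differed by -3.49 (SE 0.35), MAP1A, a microtubule-associated protein of neurons, by -3.15 (SE 0.19) and EPHB1 by -3.08 (SE 0.53), with edgeR adjusted p = 6.32e-07, 1.38e-10 and 0.000909. MAP1A had a log2 fold change of 2.65 under CAMTA1 and -0.5 under the fusion, and VGF 2.55 and -0.94. Against EV the MAP1A call was lost without TAZ-CAMTA1 replicate 3, EV replicate 2 or EV replicate 3, and the VGF call without TAZ-CAMTA1 replicate 1 or 2 or any one EV library. In the neuronal cytoskeleton list 9 of 20 genes had a lower change under the fusion than under CAMTA1 and none a higher one. In the YAP/TAZ target list 4 of 22 genes had a higher change and none a lower one, and in the Hippo list 7 of 35 and none.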

How the data were processed

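Poly(A) RNA of SW872 cells was profiled in 24 libraries of 8 groups, named with their replicate numbers from the sample titles. The deposited files held raw read counts for each Ensembl gene in a library, and the authors aligned the reads to hg38 with Hisat2 in bcbio-nextgen. The study also derived gene counts with Salmon and tximport. Which of these routes gave the deposited whole numbers, and its treatment of strand and multiply aligned reads, are not given in the sources used here, so overlapping genes and near-identical copies are uncertain. The study's own differential tests used DESeq2. By the study's methods, replicates of a group were separate transductions, each with its own selection.

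Counts were fitted with edgeR 4.0.16 (R 4.3.3, quasi-likelihood F test, TMM scaling, 1 mean per group), after a filter at a mean of 5 counts over the 6 libraries, with Benjamini-Hochberg adjustment over 19681 genes. Each SE was the absolute log2 fold change divided by the root of its F statistic. Symbols and exon lengths came from GENCODE for 19281 tested genes, and promoters from RefSeq. Intervals on counts cover counting error only. The script was tested on simulated data. Members, gene lists and families were chosen with earlier results of these data known. Genes were named by rule: the construct genes, the 15 risen and 10 fallen protein-coding genes of largest change with at least 50 mean counts and no overlap between groups, up to 5 called genes per direction and the first 3 genes of each list, genes the study followed by quantitative PCR, and up to 3 per direction for each further contrast and noncoding class. Not all were printed, and 1 list and 1 gene examined are not reported here. TEAD1, TEAD4, YAP1, THBS1, ANKRD1 and SRXN1, the genes given as not passing the test, the genes largest in a further contrast at 50 mean counts, and members of a list beyond its leading ones were named after their values were seen. Alternatives were DESeq2 1.42.0, its size factors, total-count scaling, other filters, the 6 libraries alone, the replicate number as a block, a threshold test at a log2 change of 1 and fits without each library. An offset for exon length (lowess span 0.3) was added after seeing the data.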

Additional observations from a re-analysis of the deposited data

How the results depend on the processing

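The number of genes called in TAZ-CAMTA1 against EV was 1012 and lay between 546 and 908 in the 6 fits without a library. A threshold test at a log2 change of 1 called 52 genes, 50 of them higher. The other alternatives gave between 898 (exon length offset, chosen after seeing the data) and 1342 genes (the 6 libraries alone), and DESeq2 called 1247. In the test against the libraries labelled TAZ4SA the fits without a library gave 9168 to 10063 genes, and in the contrast with the CAMTA1 change they gave 348 to 478. Same-numbered TAZ-CAMTA1 and EV libraries had correlations of -0.0982, 0.0834 and 0.098, so the numbers were not taken as pairs. With the replicate block 1114, 10548 and 530 genes were called in the 3 comparisons. No called value of a named gene changed sign. Of 240 named genes called, 124 kept their call in all 6 fits without a library, while 22 lost it under the exon length offset, 8 under total-count scaling and 4 with DESeq2. Lower genes depended most on single libraries, with 83 called without TAZ-CAMTA1 replicate 3 and 102 without EV replicate 2, beside 289.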

Other observations

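Further gene families were read with the same fit. Of 33 ADAM and ADAMTS genes, which encode shedding and matrix-cutting proteases, 6 were higher and none lower. Of 16 genes of the TNF receptor superfamily 3 were lower and 1 was higher, and the count of 4 was 2 with no filter beyond 1 count and also without TAZ-CAMTA1 replicate 2 or 3 or EV replicate 2. TNFRSF1B, a TNF receptor, stood at 29.6, 30.8 and 33.5 CPM in EV and at 22.6, 21.6 and 20.2 CPM in TAZ-CAMTA1 (a log2 change of -0.54 with SE 0.1, adjusted p = 0.00122 by edgeR). In the BCL2 family 1 of 15 genes was higher and 2 were lower, with a median log2 fold change of -0.05. The antiapoptotic BCL2L1 had a log2 fold change of 0.4 and the proapoptotic BCL2L11 one of -0.58 (edgeR adjusted p = 0.00407 and 0.000487). Both kept their calls in all 6 fits without a library. BCL2L11 stood at 38, 35.9 and 39 CPM in EV and at 25.9, 24.1 and 25.6 CPM in TAZ-CAMTA1.

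SEMA3F, a repulsive guidance ligand, stood at 9.12, 9.69 and 9.63 CPM in EV and at 20.8, 21.4 and 21 CPM in TAZ-CAMTA1 (a log2 change of 1.15 with SE 0.11, adjusted p = 1.18e-07 by edgeR). KCNJ5, an inward rectifier potassium channel, rose by 2.22 on the log2 scale and KCNC1, a delayed rectifier, fell by 1.23 (edgeR adjusted p = 2.62e-05 and 5.93e-05). RCAN1, an inhibitor of calcineurin, rose by 1.08 and CALM3, a calmodulin gene, fell by 0.48 (edgeR adjusted p = 1.29e-06 and 0.0109), with the CALM3 call lost without TAZ-CAMTA1 replicate 3 or EV replicate 3. MAFK, a small MAF factor, rose by 1.22 on the log2 scale, and its groups did not overlap.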
